A study of Homo sapiens with 9 samples.

Results

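The serpin genes were followed in HT-29, an established cell line from a human colon adenocarcinoma, under treatment with 5-aza-deoxycytidine (5-Aza). This nucleoside is built into DNA, where it traps DNA methyltransferases and so lowers methylation. Members were the genes of the array whose symbol is SERPIN followed by a clade letter and a number, with pseudogenes left out. They numbered 29 of the 19775 genes with a probe set, measured by 47 probe sets. Clade A had 9 members, clade B 11, clades F and I 2 each, and clades C, D, E, G and H 1 each. Cultures received DMSO vehicle (0 µM), 5 µM or 10 µM 5-Aza for 5 days, with 3 biological replicate cultures per group. All 9 cultures were of the same line and carried no other agent, and total RNA of each was hybridised to 1 Affymetrix U133 Plus array.

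Serpins are proteins that mostly inhibit proteases: the protease cuts an exposed loop of the serpin, which then changes shape and holds the enzyme in a permanent complex. The clade letter gives the sequence family. Clade A holds plasma proteins made chiefly by the liver, clade B holds proteins that act largely inside cells or at epithelial surfaces, clades C to G hold mainly inhibitors of clotting, fibrinolysis and complement, clade H a collagen chaperone, and clade I the neuroserpin group. In the gut, serpins are best known from epithelial cells that face the proteases of leukocytes and of the lumen.

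Values are log2 signals. Where a gene had several probe sets, the one whose mean over the 9 arrays was highest stood for it, and the floor of an array was the median of all its probe sets, between 5.07 and 5.52. The 3 arrays per group limit the precision of every value. Markers of colon epithelium reached the floor on all 9 arrays for 9 of 13 genes, while CDX1, CDX2 and PHGR1 lay below it on all 9, and the summed marker level on the log2 scale went from between 16.40 and 16.46 at 0 µM to between 15.84 and 16.03 at 10 µM. The difference between the 3' and 5' signals of the actin control, a measure of how much of the transcript's far end is lost, rose with dose (2.09 ± 0.19, 2.59 ± 0.10 and 2.98 ± 0.16, SD, n = 3). Correlations between replicates over the tested genes were 0.966 to 0.977 at 10 µM, and 0.979 to 0.989 in the other groups.

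Members of the family lay above the floor on all arrays, crossed it with dose or replicate, or stayed below it. At 0 µM, 11 of the 29 genes reached the floor on all 3 arrays, against 16 at 5 µM and 13 at 10 µM. A gene was tested when it did so in at least 1 group, which left 16 tested genes: SERPINA1, A3, A4, A5 and A9, SERPINB1, B3, B5, B7, B8 and B9, SERPINE2, SERPINF1 and F2, SERPINH1 and SERPINI1. Because a gene that is high in 1 group alone passes this filter through that group, the 16 are not a neutral sample of the 29.

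**Figure D1:**
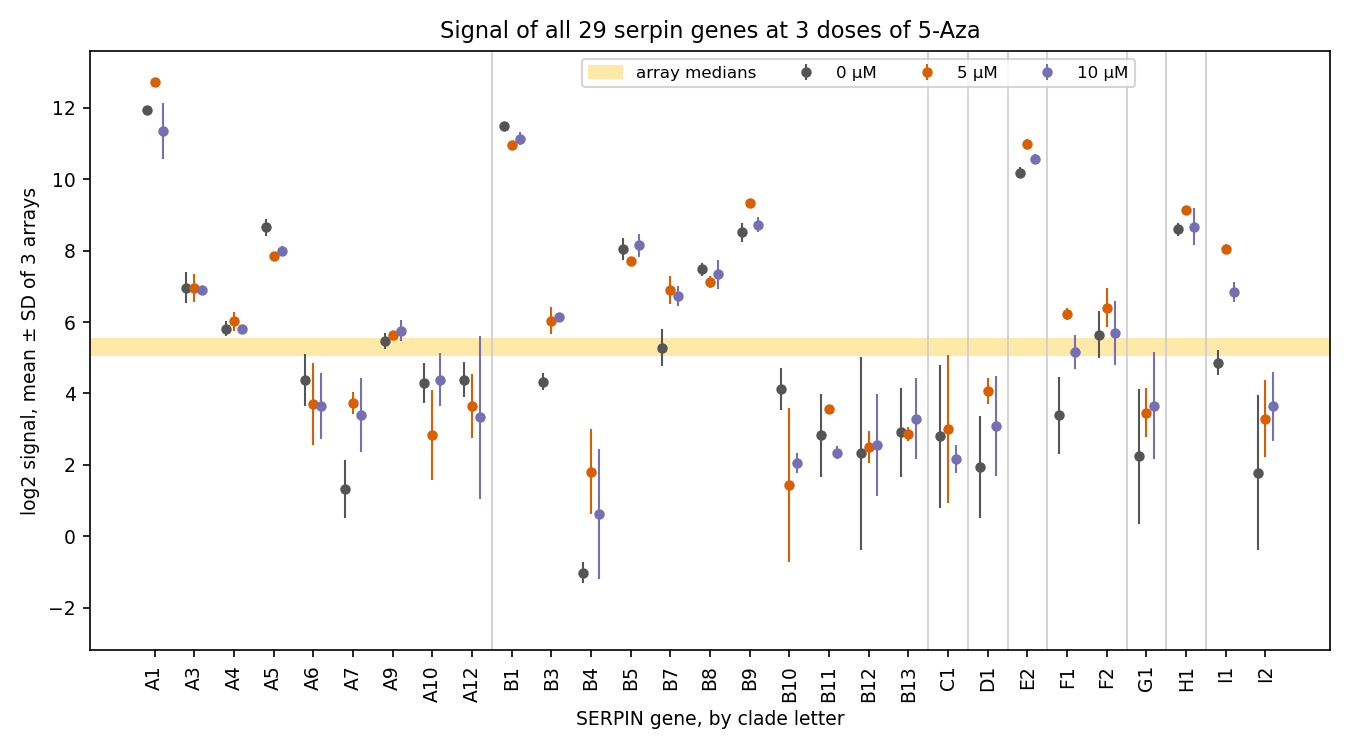
The log2 signal of all 29 serpin genes (y axis) is plotted by gene in clade order (x axis) for the 3 doses of 5-Aza. Points are means of 3 arrays, bars are SD, and the shaded band spans the array medians of 5.07 to 5.52. The signals of different genes come from different probe sets and are not to be ranked against each other.

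SERPINI1, SERPINF1, SERPINB3 and SERPINB7 were higher at 5 µM than in the vehicle, and the same 4 genes were higher at 10 µM than in the vehicle. A call required a limma p of at most 0.05 after Benjamini-Hochberg adjustment over all 11756 tested genes, and a change of more than 2-fold. At 5 µM against 0 µM this gave 4 serpin genes higher of 16 tested, where 8.60% of all tested genes were higher, and 0 lower, where 1.32% of all tested genes were lower. At an unadjusted p under 0.05 limma found 2 lower there, SERPINA5 and SERPINB1, both by under 2-fold. Their adjusted p by the methods' t-test was 0.0270 and 0.00895, and with the same 2-fold threshold that test could not call them. At 10 µM against 0 µM, 4 were higher (background 6.08%) and 0 lower (background 1.50%). The same 2 genes were lower at an unadjusted p under 0.05, again by under 2-fold. The share of all tested genes at that unadjusted p was not counted. Between the doses, SERPINA1 and SERPINI1 were lower at 10 µM than at 5 µM (2 of 16, background 2.08%). Of the 16, 0 were higher (background 0.264%), with 0 higher at an unadjusted p under 0.05. The methods' t-test called 0 of the 2 lower genes (SERPINA1 adjusted p = 0.171).

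The median log2 change of the 16 tested serpin genes was 0.64 at 5 µM against 0 µM, where that of all tested genes was 0.04. The 4 genes called higher each had at least 1 vehicle array below the floor and passed the filter only through treated arrays. Their number and this median thus rest partly on that filter, which was the same for all genes. It was -0.19 at 10 µM against 5 µM (all genes -0.01) and 0.08 at 10 µM against 0 µM (all genes 0.05). The change was positive in 11, 6 and 10 of the 16 genes, respectively. Scaling the arrays to equal medians moved the median of all tested genes to -0.22 at 5 µM and -0.23 at 10 µM against 0 µM. Under that scaling, SERPINA5 was lower at 5 µM beside the 4 higher serpin genes, and over all genes the calls were 721 higher and 443 lower (1011 and 155 as deposited) at 5 µM, and 458 higher and 475 lower (715 and 176 as deposited) at 10 µM.

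**Figure D2:**
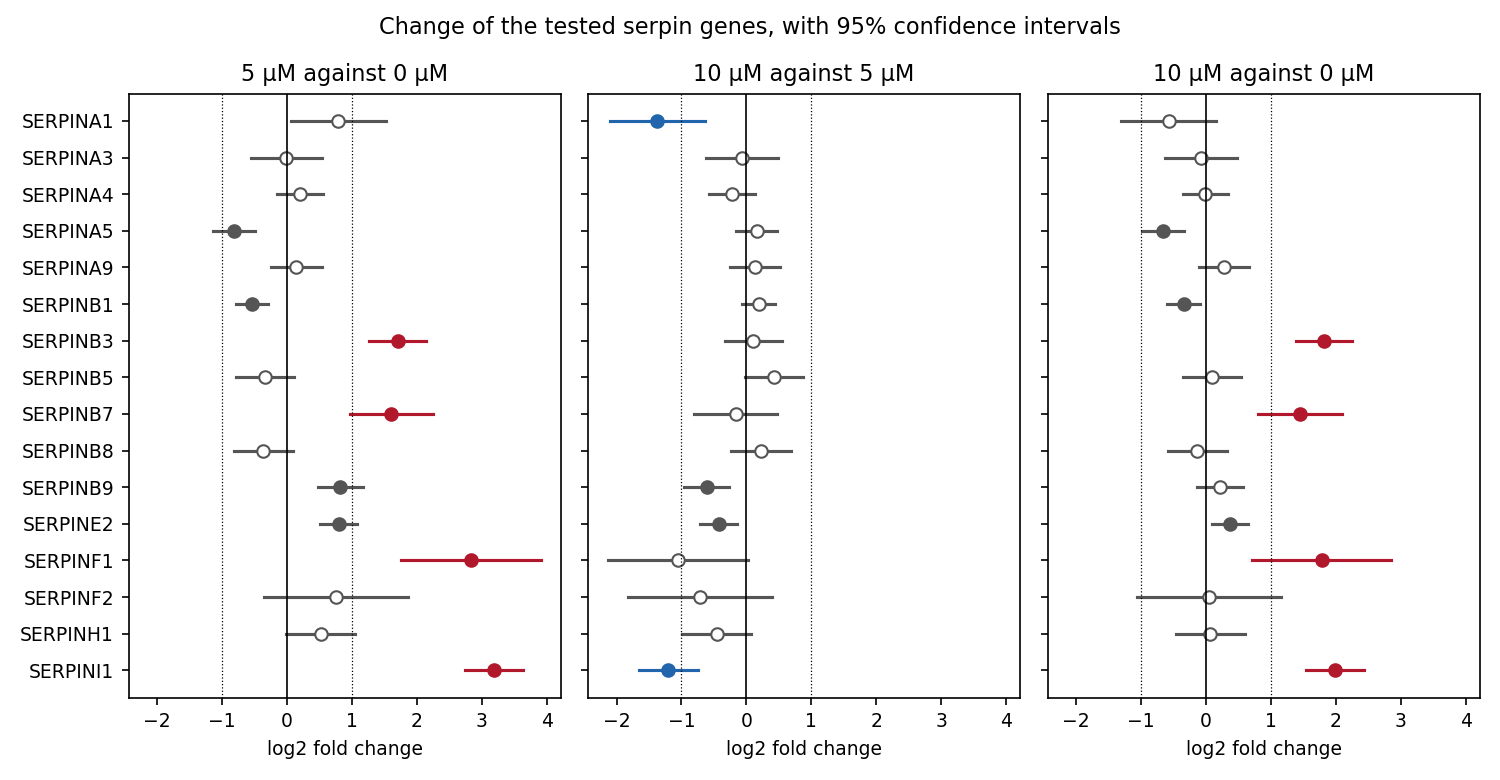
The log2 fold change of each of the 16 tested serpin genes (x axis) is drawn with its 95% confidence interval for the 3 comparisons. Filled points have an adjusted p of at most 0.05, red points are called higher, blue points are called lower, and dotted lines mark 2-fold. SERPINI1, SERPINF1, SERPINB3 and SERPINB7 lie to the right of the 2-fold line in both comparisons with the vehicle.

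The 250 bases before the gene start are shown for the called serpin genes that have an entry in the promoter table used here, since CpG dinucleotides are the sites whose methylation 5-Aza lowers. They are from RefSeq on GRCh38.p14 and are read 5′ to 3′ on the strand of the gene, with each CpG in capitals. SERPINI1 and SERPINB3 have 1 start listed, SERPINB7 has 3 and SERPINA1 has 2, of which the first listed was used.
SERPINI1, chr3:167735471-167735720 (+ strand): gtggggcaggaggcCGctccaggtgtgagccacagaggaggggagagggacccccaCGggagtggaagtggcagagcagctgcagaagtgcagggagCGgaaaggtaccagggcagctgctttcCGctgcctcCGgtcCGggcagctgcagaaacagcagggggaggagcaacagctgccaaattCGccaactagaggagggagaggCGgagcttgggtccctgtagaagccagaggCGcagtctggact
SERPINB3, chr18:63661894-63662143 (- strand): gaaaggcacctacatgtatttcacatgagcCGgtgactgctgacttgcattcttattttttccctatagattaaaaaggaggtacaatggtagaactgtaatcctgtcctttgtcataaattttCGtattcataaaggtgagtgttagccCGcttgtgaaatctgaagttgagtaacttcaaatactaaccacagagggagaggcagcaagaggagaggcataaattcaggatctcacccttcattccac
SERPINB7, chr18:63752807-63753056 (+ strand): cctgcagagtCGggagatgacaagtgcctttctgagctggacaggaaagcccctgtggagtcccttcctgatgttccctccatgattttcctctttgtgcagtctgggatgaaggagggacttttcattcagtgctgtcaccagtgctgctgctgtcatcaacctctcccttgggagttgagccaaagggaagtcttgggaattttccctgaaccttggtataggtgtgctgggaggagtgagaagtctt
SERPINA1, chr14:94390636-94390885 (- strand): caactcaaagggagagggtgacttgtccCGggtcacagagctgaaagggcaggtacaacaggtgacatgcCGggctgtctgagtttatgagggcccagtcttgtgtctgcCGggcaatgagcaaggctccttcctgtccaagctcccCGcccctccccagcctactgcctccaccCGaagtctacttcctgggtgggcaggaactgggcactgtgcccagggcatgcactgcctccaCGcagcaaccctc

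SERPINI1, neuroserpin, had the largest fitted change of the 16 tested serpin genes at 5 µM. It is an inhibitor of tissue plasminogen activator that is known mainly from neurons. On the log2 scale its signals were 4.74, 5.26 and 4.60 on the vehicle arrays, 7.96, 7.99 and 8.22 at 5 µM, and 6.94, 7.08 and 6.54 at 10 µM. The 3 groups did not overlap, with 2 of the 3 vehicle arrays below the floor, the 5 µM arrays highest and the 10 µM arrays between. The log2 fold change was 3.19 ± 0.20 (SE) at 5 µM against 0 µM with a limma adjusted p of 1.63e-05 and a 95% interval of 2.74 to 3.64. Part of this lies below the floor: with low signals raised to the array medians, the change was 2.845 (limma adjusted p = 8.97e-07). From 5 to 10 µM the signal fell by 1.20 ± 0.20 on the log2 scale (limma adjusted p = 0.00777), and at 10 µM it was still 1.99 ± 0.20 above the vehicle (limma adjusted p = 0.000348), or 1.64 with low signals raised. SERPINI1 was the 1 serpin gene still called higher at 5 µM when the actin control entered the fit as a covariate (3.52, limma adjusted p = 0.00299). Its fall from 5 to 10 µM was not called by the methods' t-test (adjusted p = 0.0572).

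SERPINI2, the other clade I member and a serpin known from the pancreas, stayed below the floor on every array. Its group means were 1.78, 3.29 and 3.63 with increasing dose, so no fold is given.

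SERPINF1, pigment epithelium-derived factor, is a secreted serpin without protease inhibitory activity that is known for blocking angiogenesis. None of its vehicle arrays reached the floor, with log2 signals of 4.23, 2.17 and 3.76. At 5 µM the signals were 6.15, 6.09 and 6.43, all above the floor. At 10 µM they were 5.72, 4.84 and 4.94, and replicate 1 alone reached the floor. The vehicle and 5 µM arrays did not overlap, and the 10 µM arrays lay between them. SERPINF1 was at least 2.11-fold higher at 5 µM than in the vehicle (limma adjusted p = 0.00239) and at least 1.01-fold higher at 10 µM (limma adjusted p = 0.0209). For this bound, vehicle values below the median of their array were raised to that median. The fitted log2 change, which has no such bound, was 2.84 ± 0.47 (SE) at 5 µM and 1.78 ± 0.47 at 10 µM. The call at 10 µM was lost without 10 µM replicate 1 (log2 change 1.50, limma adjusted p = 0.0660). It was also lost by the methods' t-test and with low signals raised to the array medians. From 5 to 10 µM the change was -1.06 ± 0.47 with a 95% interval of -2.13 to 0.02 (limma adjusted p = 0.160), and without 0 µM replicate 2 it was called lower (limma adjusted p = 0.0335).

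SERPINF1 is known from stromal cells, so fibroblast markers are given beside it. Of 9 fibroblast genes, 2 reached the floor on all arrays, and COL3A1, PDGFRA, PDGFRB, FAP and THY1 lay below it on all 9. The summed log2 level of the list was 8.22 to 8.63 at 0 µM, 10.09 to 10.15 at 5 µM and 9.33 to 9.59 at 10 µM, so it moved with SERPINF1. The pair above the floor was COL1A1 and LUM, and both were higher at 5 µM, by 2.68 ± 0.26 and 1.57 ± 0.16 (log2, SE, limma adjusted p = 0.000140 and 0.000165). COL1A1 was also higher at 10 µM against the vehicle (1.98 ± 0.26, limma adjusted p = 0.00102), though not with its probe sets averaged (0.87). The labels name HT-29 alone, and the part of such cells in the SERPINF1 result was not tested. On arrays of whole cultures, a change in the share of a kind of cell and a change in RNA per cell cannot be told apart.

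SERPINF2, alpha-2-antiplasmin, the main inhibitor of plasmin in blood, lies 6794 bases from SERPINF1 on chromosome 17. Its signals overlapped between all groups, at 5.00, 6.32 and 5.63 in the vehicle, 5.81, 6.84 and 6.57 at 5 µM, and 6.12, 6.29 and 4.67 at 10 µM.

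**Figure D3:**
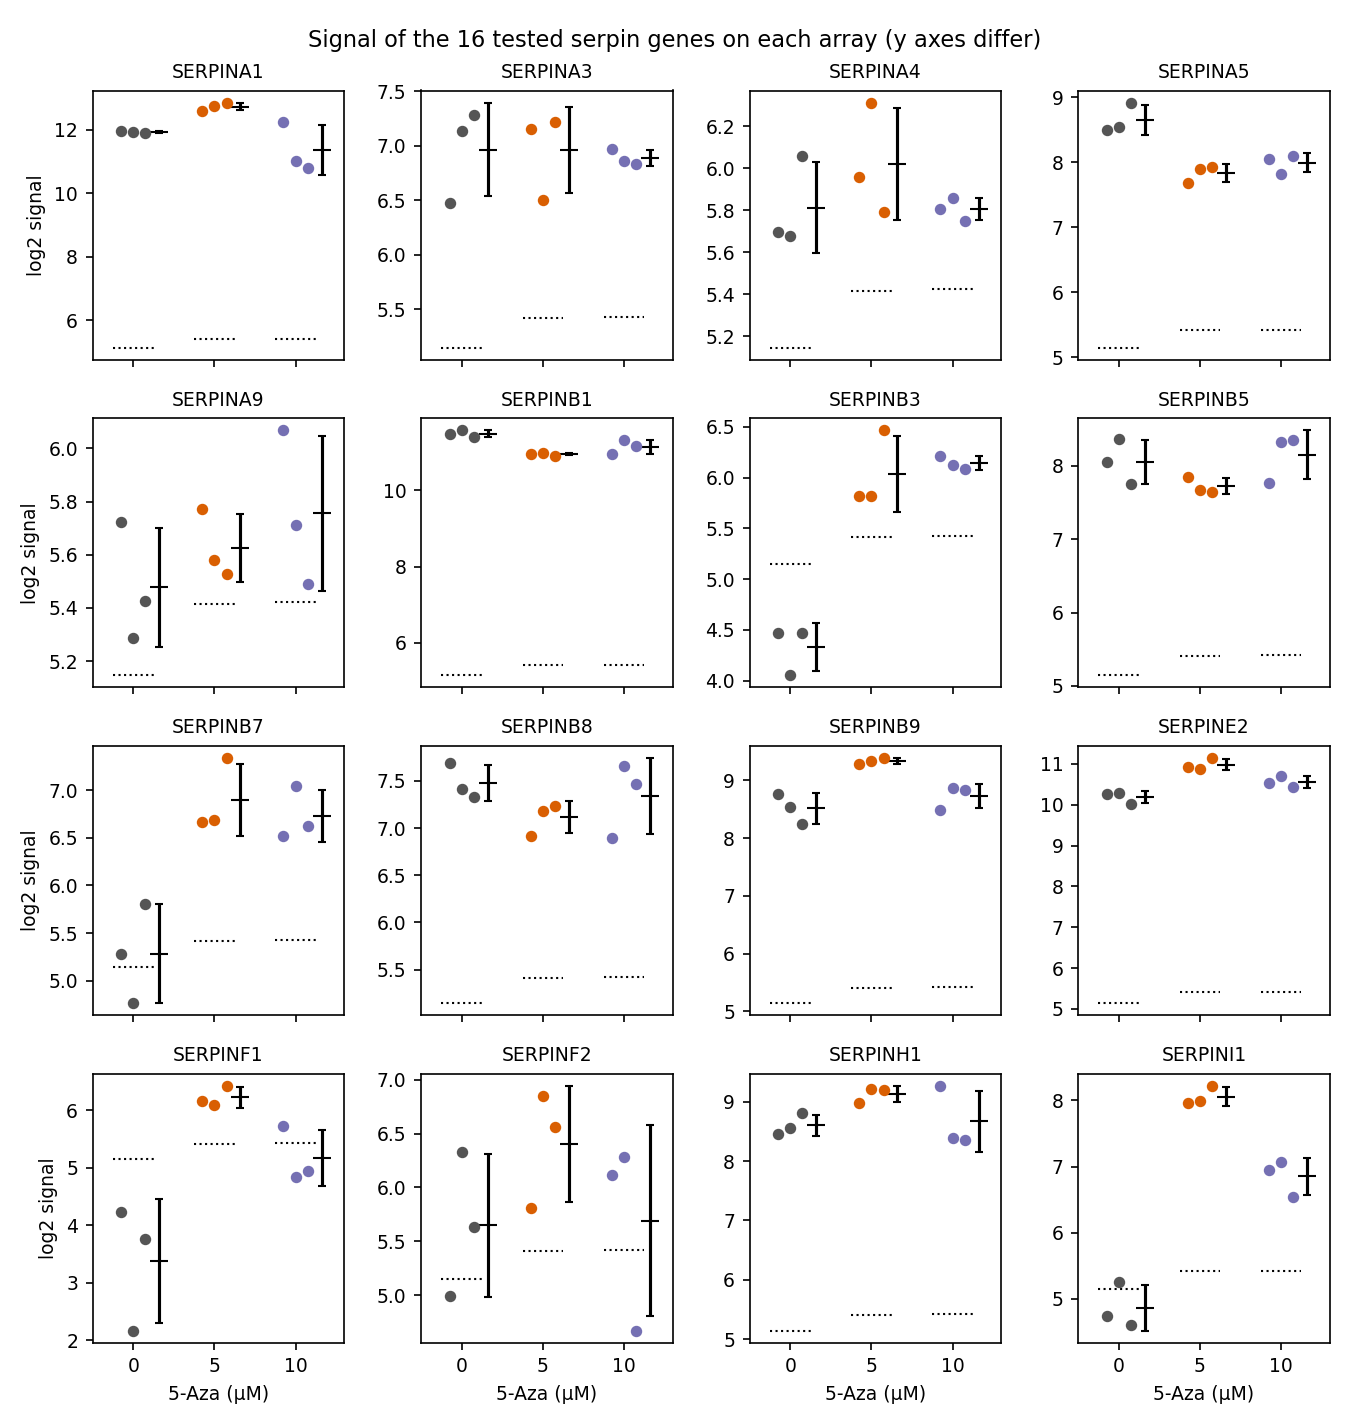
The log2 signal (y axis, with a different range in each panel) of the 16 tested serpin genes is shown by 5-Aza dose (x axis, µM). Points are single arrays, bars are mean ± SD (n = 3), and dotted lines give the mean of the array medians in each group. The SERPINI1 panel shows 3 separate groups, and in the SERPINB3 and SERPINF1 panels all 3 vehicle arrays lie under the dotted line.

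Of the clade B genes, 6 were tested, and SERPINB3 and SERPINB7 were higher at both doses. SERPINB3, squamous cell carcinoma antigen 1, is an inhibitor of cysteine cathepsins known from squamous epithelium. Its log2 signals were 4.47, 4.05 and 4.47 in the vehicle, all below the floor, then 5.82, 5.82 and 6.47 at 5 µM and 6.22, 6.13 and 6.09 at 10 µM. Both treated groups lay wholly above the vehicle, and they overlapped each other. SERPINB3 was at least 1.85-fold higher at 5 µM (fitted log2 change 1.71 ± 0.19, SE, limma adjusted p = 0.000317) and at least 1.996-fold higher at 10 µM (1.81 ± 0.19, limma adjusted p = 0.000438). With low signals raised to the array medians the log2 changes were 0.89 and 0.997, both under 2-fold and not called. Between the doses the change was 0.11 with a 95% interval of -0.33 to 0.54 (limma adjusted p = 0.730).

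The SERPINB3 value is uncertain because SERPINB3 and SERPINB4, squamous cell carcinoma antigen 2, are near-identical in sequence and a probe set can bind both. The SERPINB3 probe set used here has the suffix _x_at, which marks probes that may cross-hybridise. The other SERPINB3 probe set stayed below the floor throughout, with group means of 0.63, 4.42 and 3.02. A probe set that the platform table assigns to both genes, and so to neither here, had group means of 3.76 ± 0.71, 5.77 ± 0.05 and 5.74 ± 0.21 (log2, SD, n = 3), with every vehicle array under the floor and every treated array above it. SERPINB4 by its own probe set stayed below the floor, with group means of -1.02, 1.80 and 0.62.

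SERPINB7, megsin, is a clade B serpin of the epidermis and the kidney mesangium, and its loss causes a thickening of palm and sole skin. The vehicle arrays had log2 signals of 5.28, 4.77 and 5.81, against 6.67, 6.69 and 7.34 at 5 µM and 6.52, 7.04 and 6.63 at 10 µM. All treated arrays were above all vehicle arrays, and the treated groups overlapped. The log2 fold change was 1.61 ± 0.28 (SE) at 5 µM, or 3.06-fold (limma adjusted p = 0.00307), and 1.44 ± 0.28 at 10 µM, or 2.72-fold (limma adjusted p = 0.00627). With the low vehicle array raised to its median these were 1.51 and 1.35. From 5 to 10 µM it was -0.17, with a 95% interval of -0.81 to 0.48 (limma adjusted p = 0.719). The rise at 10 µM was not called by the methods' t-test (adjusted p = 0.0703).

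Squamous epithelium markers are given beside this pair of genes. Of 7 such markers, 2 reached the floor on all arrays, KRT5, KRT14, IVL and DSG3 lay below it on all 9, and the summed log2 level was 11.75 to 11.92 at 0 µM, 11.70 to 11.96 at 5 µM and 11.07 to 11.57 at 10 µM. The pair above the floor was KRT10 and KRT13. KRT13 was higher at 5 µM by 1.10 ± 0.19 (log2, SE, limma adjusted p = 0.00309), and came under 2-fold with equal array medians (0.83), with quantile normalization (0.95), without 0 µM replicate 2 (0.90) or without 5 µM replicate 3 (0.96). KRT10, which makes up most of the summed signal, changed by -0.11 (limma adjusted p = 0.619). The part of such cells in the SERPINB3 and SERPINB7 results was not tested.

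SERPINB1 and SERPINB9, neighbours on chromosome 6, moved in opposite directions at 5 µM, each by under 2-fold. SERPINB1 inhibits neutrophil elastase and related leukocyte proteases. Signals on the log2 scale were 11.48, 11.57 and 11.39 in the vehicle, 10.95, 10.97 and 10.91 at 5 µM, and 10.95, 11.31 and 11.16 at 10 µM. All treated arrays were below all vehicle arrays. SERPINB1 fell by 0.54 ± 0.11 (log2, SE) at 5 µM (limma adjusted p = 0.00672) and by 0.34 ± 0.11 at 10 µM (limma adjusted p = 0.0431). Of its other 3 probe sets, a pair had mean differences of -0.52 and -0.62 at 5 µM, and the fourth had group means of 6.58, 6.39 and 6.64.

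SERPINB9 inhibits granzyme B, the death-inducing protease of cytotoxic lymphocytes. The log2 signals were 8.77, 8.53 and 8.24 in the vehicle, 9.29, 9.34 and 9.39 at 5 µM, and 8.49, 8.86 and 8.83 at 10 µM. The 5 µM arrays were above all others, and the vehicle and 10 µM arrays overlapped. The gene rose by 0.82 ± 0.15 (log2, SE) at 5 µM (limma adjusted p = 0.00421) and fell by 0.61 ± 0.15 from 5 to 10 µM (limma adjusted p = 0.0315). At 10 µM against the vehicle the change was 0.21 (limma adjusted p = 0.311), and it was -0.063 with equal array medians. A second SERPINB9 probe set had group means of 6.52, 7.51 and 7.35 with increasing dose.

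The last pair of tested clade B genes gave no adjusted p of at most 0.05. SERPINB5, maspin, an epithelial serpin without inhibitory activity, had log2 signals of 8.04, 8.36 and 7.75 in the vehicle, 7.84, 7.66 and 7.65 at 5 µM, and 7.77, 8.33 and 8.35 at 10 µM. SERPINB8, which inhibits furin, had 7.69, 7.41 and 7.33 in the vehicle, 6.92, 7.19 and 7.24 at 5 µM, and 6.89, 7.66 and 7.47 at 10 µM. Of these comparisons, only the vehicle and 5 µM arrays of SERPINB8 did not overlap.

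Clade A had 5 tested genes, and SERPINA1 was called lower at 10 µM than at 5 µM. SERPINA1, alpha-1-antitrypsin, protects tissue from neutrophil elastase. Its log2 signals were 11.95, 11.94 and 11.90 in the vehicle, 12.60, 12.75 and 12.83 at 5 µM, and 12.25, 11.01 and 10.80 at 10 µM. The 5 µM arrays were above all others, and 10 µM replicate 1 was above the vehicle arrays while replicates 2 and 3 were below them. At 5 µM the change was 0.79 ± 0.32 (log2, SE, limma adjusted p = 0.0872). That fit shares 1 spread over the 3 groups, whose SDs were 0.02, 0.12 and 0.79 with increasing dose. By the methods' t-test, which uses the 2 compared groups alone, the adjusted p was 0.00720, with the change still under 2-fold. From 5 to 10 µM the gene fell by 1.37 ± 0.32 (limma adjusted p = 0.0244), and at 10 µM against the vehicle the change was -0.58 ± 0.32 (limma adjusted p = 0.194).

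Some SERPINA1 calls turned on single arrays and on the probe set. The fall from 5 to 10 µM was no longer called without any 1 of the 3 arrays at 5 µM, or without 10 µM replicate 2 or 3, with limma adjusted p between 0.0508 and 0.0896, while the change itself stayed between -1.44 and -1.09. Without 10 µM replicate 1, SERPINA1 was called lower at 10 µM than in the vehicle (log2 change -1.02, limma adjusted p = 0.00124). One of its other probe sets had mean differences of 0.75 at 5 µM against 0 µM and -0.75 at 10 µM against 5 µM. The third had differences of 1.39 and -0.62. Where probe sets with the suffixes _x_at and _s_at were left out, the third stood for the gene and SERPINA1 was called higher at 5 µM (limma adjusted p = 0.00208). All 3 probe sets above the floor had their highest group mean at 5 µM. Hepatocyte markers, given because the liver is the main source of this protein, were below the floor on all 9 arrays for ALB, APOA1, FGB and TF, and reached it on all arrays for 1 of 8 genes. Their summed log2 level was 8.08 to 8.32, 8.47 to 8.58 and 8.30 to 8.65 with increasing dose. APOA2, also of this list, was called higher at 5 µM than in the vehicle (fitted log2 change 3.29, limma adjusted p = 0.00554). From 5 to 10 µM it was called lower (-3.57, limma adjusted p = 0.0110). No vehicle or 10 µM array reached the floor for APOA2, and the bounds were at least 1.45-fold and at least 1.20-fold. With low signals raised to the array medians the log2 changes were 0.54 and -0.26 (limma adjusted p = 0.0398 and 0.334), and neither was called. The call between the doses was lost without 5 µM replicate 3 (limma adjusted p = 0.0524). The part of such cells in the SERPINA1 result was not tested.

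**Figure D4:**
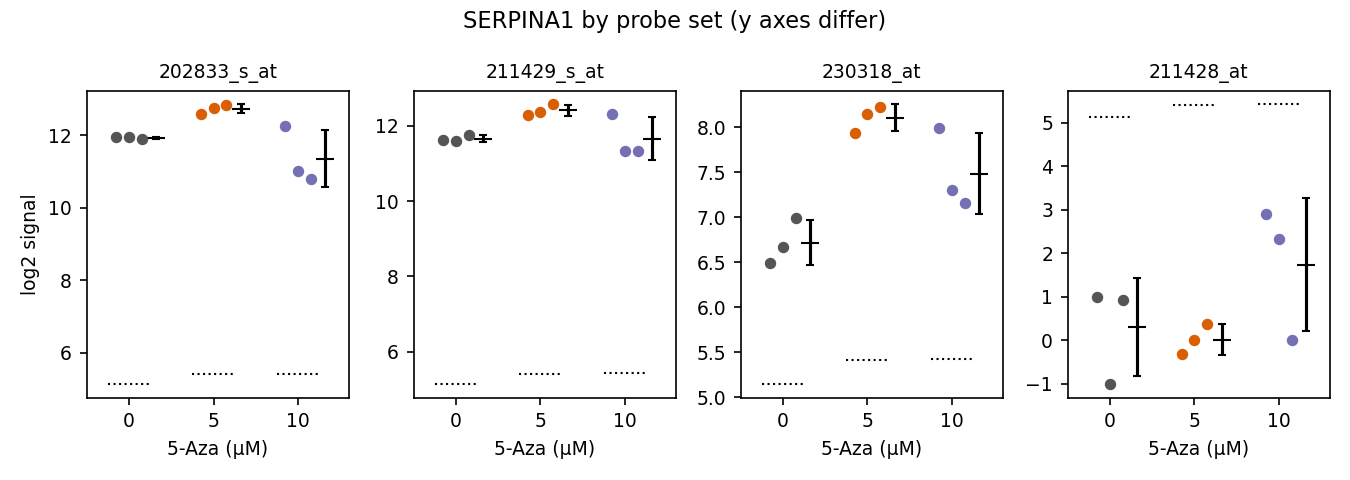
The log2 signal of the 4 SERPINA1 probe sets (y axis, with a different range in each panel) is shown by 5-Aza dose (x axis, µM). Points are single arrays, bars are mean ± SD (n = 3) and dotted lines are the mean array medians. In the 3 probe sets above the floor, 10 µM replicate 1 lies above replicates 2 and 3.

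SERPINA5, the protein C inhibitor, which also inhibits urokinase, was lower at both doses by under 2-fold. SERPINA5 had log2 signals of 8.49, 8.55 and 8.92 in the vehicle, 7.68, 7.89 and 7.93 at 5 µM, and 8.05, 7.82 and 8.10 at 10 µM. All treated arrays were below all vehicle arrays. The gene fell by 0.82 ± 0.14 (log2, SE) at 5 µM (limma adjusted p = 0.00287) and by 0.66 ± 0.14 at 10 µM (limma adjusted p = 0.00900). At 5 µM it was called lower with equal array medians (-1.08, limma adjusted p = 0.000526) and with the actin covariate (-1.26, limma adjusted p = 0.0189). Between the doses the change was 0.16 ± 0.14 (limma adjusted p = 0.480).

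For the other 3 tested clade A genes the groups overlapped in every comparison. SERPINA3, alpha-1-antichymotrypsin, an acute phase inhibitor of cathepsin G, had group means of 6.97 ± 0.43, 6.96 ± 0.40 and 6.89 ± 0.07 (log2, SD, n = 3) with increasing dose. SERPINA4, kallistatin, an inhibitor of tissue kallikrein, had 5.81 ± 0.22, 6.02 ± 0.27 and 5.81 ± 0.05. SERPINA9, known from germinal centre B cells, stayed near the floor at 5.48 ± 0.22, 5.63 ± 0.13 and 5.76 ± 0.29.

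SERPINE2, protease nexin 1, inhibits thrombin and urokinase at the cell surface. Its log2 signals were 10.26, 10.29 and 10.01 in the vehicle, 10.92, 10.89 and 11.14 at 5 µM, and 10.53, 10.71 and 10.43 at 10 µM. The 3 groups did not overlap, with the 10 µM arrays between the others. The changes all had an adjusted p of at most 0.05 and were all under 2-fold: a rise of 0.80 ± 0.12 (log2, SE) at 5 µM (limma adjusted p = 0.00170), a change of -0.43 ± 0.12 from 5 to 10 µM (limma adjusted p = 0.0496), and 0.37 ± 0.12 at 10 µM against the vehicle (limma adjusted p = 0.0483). With equal array medians the rise at 5 µM was 0.53 (limma adjusted p = 0.0347). That scaling moved the median of all tested genes at 10 µM against 0 µM from 0.05 to -0.23. SERPINE2 shares this shift, so its small rise at 10 µM depends on the scaling.

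SERPINH1, HSP47, is a chaperone that binds procollagen in the endoplasmic reticulum and inhibits no protease. SERPINH1 had log2 signals of 8.45, 8.55 and 8.80 in the vehicle, 8.98, 9.21 and 9.20 at 5 µM, and 9.27, 8.38 and 8.36 at 10 µM. The 5 µM arrays were above the vehicle arrays, while the 10 µM arrays overlapped both groups.

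In all, 7 of the 16 tested serpin genes (SERPINA3, A4, A9, B5, B8, F2 and H1) had no adjusted p of at most 0.05 in any comparison. Their log2 changes ran from -0.36 to 0.76 at 5 µM against 0 µM (lowest limma adjusted p 0.115), from -0.71 to 0.43 at 10 µM against 5 µM (lowest 0.166) and from -0.14 to 0.28 at 10 µM against 0 µM (lowest 0.236). Their 95% intervals together spanned -0.82 to 1.86, -1.82 to 0.88 and -1.07 to 1.15, so that for some of them a 2-fold change lay within the interval.

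The 13 untested serpin genes include the main plasma inhibitors of clotting and complement. These are SERPINC1 (antithrombin), SERPIND1 (heparin cofactor II) and SERPING1 (C1 inhibitor), with the hormone carriers SERPINA6 (cortisol-binding) and SERPINA7 (thyroxine-binding), SERPINA10 and SERPINA12, SERPINB4, B10, B11, B12 and B13, and SERPINI2. Of these, 12 lay below the floor on all 9 arrays, and SERPINA6 reached it on 1 vehicle array. Their group means ran from -1.02 to 4.39, and no fold is given for them. A signal below the floor does not show that a gene is silent.

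The tested and untested genes lay side by side in the genome. On chromosome 14, 8 clade A genes span 343.6 kb (94280460 to 94624053 on GRCh38.p14), and 5 of them were tested. On chromosome 18, 9 clade B genes span 542.8 kb (63476958 to 64019779), and SERPINB5, B3, B7 and B8 were tested, of which SERPINB3 and SERPINB7 were called and their cluster mates SERPINB5 and SERPINB8 were not. SERPINB1 and SERPINB9, which moved apart at 5 µM, lie within 71.0 kb on chromosome 6 (2832332 to 2903309). The clade F pair lies within 34.7 kb on chromosome 17 (1742871 to 1777565), and SERPINI2 lies 258757 bases from SERPINI1 on chromosome 3.

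CpG dinucleotides were counted in the 250 bases before the start for the 23 serpin genes in the promoter table. The serpin genes had a median of 4, against 17 over 15843 protein-coding promoters, whose middle 50% ran from 6 to 26. Of the 23, 14 had 5 or fewer, as did 23.0% of all promoters, and 5 of these 14 genes were tested while 9 were not. The called genes shown above were below the median of all promoters: SERPINI1 had 9 (70.3% of promoters have at least as many), SERPINB3 had 3 (87.1%), SERPINB7 had 1 (96.9%) and SERPINA1 had 6 (77.0%). The 3 serpin genes at or above the median of all promoters were SERPINB9 with 27, SERPINB1 with 21 and SERPINH1 with 20, and none of them was called in any comparison at more than 2-fold. Methylation was not measured on these arrays, and a count of CpG does not show whether they were methylated.

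**Figure D5:**
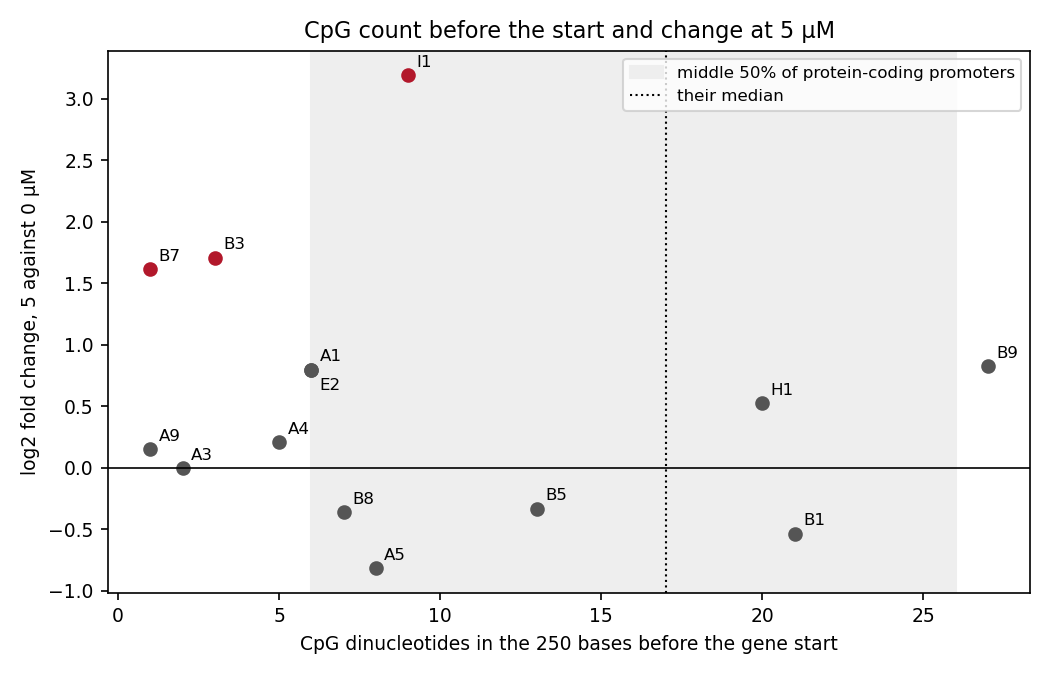
The number of CpG dinucleotides in the 250 bases before the start (x axis) is plotted against the log2 fold change at 5 µM against 0 µM (y axis) for the tested serpin genes in the promoter table. Red points are called higher, the shaded area is the middle 50% of protein-coding promoters (6 to 26) and the dotted line is their median, 17. The 3 red points, SERPINB7, SERPINB3 and SERPINI1, lie at 1, 3 and 9 CpG, and SERPINA1 and SERPINE2 share 1 position.

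Genes of the pathways in which serpins act were described by lists. Beside their counts, 8.60% of all tested genes were higher and 1.32% lower at 5 µM against 0 µM. The shares were 0.264% and 2.08% at 10 µM against 5 µM, and 6.08% and 1.50% at 10 µM against 0 µM. Of the plasminogen activation genes, where SERPINE2, SERPINI1 and SERPINF2 act, 7 of 11 on the array were tested. At 5 µM against 0 µM limma called 0 higher and 0 lower, with 4 lower and 0 higher at an unadjusted p under 0.05. The share of all tested genes at that unadjusted p was not counted, so the 4 cannot be set against a background. The median log2 change was -0.38 at 5 µM against 0 µM (all genes 0.04). The PLAU and PLAT genes, which encode urokinase and tissue plasminogen activator, lay below the floor on all 9 arrays. PLAUR, the urokinase receptor, had log2 signals of 10.70 ± 0.06, 9.99 ± 0.08 and 10.48 ± 0.23 (SD, n = 3) and fell by 0.70 ± 0.12 (SE) at 5 µM, under 2-fold (limma adjusted p = 0.00315). LRP1, the receptor that clears serpin-protease complexes, was lower at 10 µM than in the vehicle by 1.83 ± 0.30 on the log2 scale (limma adjusted p = 0.00308), and was the 1 lower gene of this list there. The methods' t-test did not call it (adjusted p = 0.0691). At 10 µM its signal was 5.84 ± 0.71 (SD, n = 3), with 1 array below the floor. LRP1 was also the 1 lower gene from 5 to 10 µM, a call lost without 5 µM replicate 1 or 3 or 10 µM replicate 3. Leukocyte serine proteases, the targets of SERPINB1, SERPINB9 and SERPINA1, had 0 tested genes of 10 on the array.

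Among epithelial and tissue serine proteases, 19 of 26 were tested, and 6 were higher at 5 µM, with 2 higher and 1 lower at 10 µM against 0 µM. Over all tested genes these shares were 8.60%, 6.08% and 1.50%. With the smallest p at 5 µM were PRSS2, a trypsin with near-identical relatives and so uncertain, HPN, the membrane protease hepsin, PRSS23 and KLK8, with log2 rises of 1.50 ± 0.12, 1.55 ± 0.13, 1.38 ± 0.12 and 1.10 ± 0.12 (SE, limma adjusted p = 5.08e-05, 7.52e-05, 8.40e-05 and 0.000267). PRSS23 was not called with its probe sets averaged (0.74), nor KLK8 with equal array medians (0.84), with quantile normalization (0.93) or without 0 µM replicate 2 (0.9965). At 10 µM against the vehicle, PRSS23 (1.03 ± 0.12, limma adjusted p = 0.000644) and the skin protease KLK5 (1.54 ± 0.26, limma adjusted p = 0.00313) were higher and TMPRSS4 lower (-1.14 ± 0.29, limma adjusted p = 0.0182), and from 5 to 10 µM KLK7 was lower (-1.50 ± 0.37, limma adjusted p = 0.0289). The 10 µM call of PRSS23 was lost without 0 µM replicate 2 or 3 or 10 µM replicate 2, that of TMPRSS4 without any 1 of these or 10 µM replicate 3, and that of KLK7 without any 1 array at 5 µM or 10 µM replicate 2 or 3. Of 9 tested cysteine cathepsins, the enzymes that SERPINB3 inhibits, CTSL and CTSV were higher at both doses against the vehicle, by 1.76 ± 0.10 and 2.51 ± 0.16 at 5 µM (log2, SE, limma adjusted p = 1.01e-05 and 1.68e-05). CTSV was also lower at 10 µM than at 5 µM (-1.24 ± 0.16, limma adjusted p = 0.00359). With equal array medians the changes of both at 10 µM against the vehicle came just under 2-fold. Of 7 tested coagulation and complement proteases and cofactors, the complement genes CFD and CFB were higher at both doses. The CFB call at 10 µM was lost without 0 µM replicate 2 or 3 or 10 µM replicate 1. F5, clotting factor V, was lower at 5 µM by 1.25 ± 0.11 (log2, SE, limma adjusted p = 0.000108).

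Other families of protease inhibitors had 24 tested genes, of which 9 were higher and 1 lower at 5 µM, and 7 higher and 1 lower at 10 µM against 0 µM. Over all tested genes, 8.60% were higher and 1.32% lower at 5 µM, and 6.08% and 1.50% at 10 µM against 0 µM. The highest ranked by p at 5 µM were CST6 and CSTA, both cystatins, and PI3, the elastase inhibitor elafin, with log2 rises of 3.22 ± 0.21, 2.65 ± 0.18 and 3.58 ± 0.25 (SE, limma adjusted p = 2.05e-05, 2.28e-05 and 2.78e-05). TFPI, the inhibitor of the tissue factor pathway, was the lower gene, by 1.44 ± 0.11 (limma adjusted p = 4.18e-05), and its change was -0.82 as the mean of its probe sets. The same 4 genes had the smallest p of the list at 10 µM against 0 µM. Of 19 tested collagen folding genes, which serve the step where SERPINH1 acts, 3 were higher at 5 µM and 2 at 10 µM against 0 µM. The 3 were PLOD1 (1.32 ± 0.14, log2, SE, limma adjusted p = 0.000261), P3H2 and PCOLCE, the last pair from below the floor in the vehicle and at least 2.30-fold and at least 2.04-fold higher. P3H2 and PCOLCE were also the 2 at 10 µM. Both 10 µM calls were lost with low signals raised to the array medians (log2 changes 0.73 and 0.56). They were also lost by the methods' t-test (adjusted p = 0.0735 and 0.155). That of PCOLCE was lost as well with no filter, without 0 µM replicate 2 or without 10 µM replicate 1.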

How the data were processed

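Total RNA of 9 HT-29 cultures was measured on Affymetrix U133 Plus arrays, and groups were taken from the labels. The value table the authors deposited holds a log2 signal for each of 54675 probe sets. The submitters' notes name RMA and affy 1.14.2, but the values have the form of MAS 5.0 signals: multiples of 0.1 on the linear scale, a minimum of -3.32, a trimmed mean of 250.0 to 250.1 on every array (2% off each end), and sorted arrays that differ by up to 1.58. Arrays were thus scaled by a factor each, and low signals are noisy. Probe-level settings are not given in the sources used here.

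Gene names came from the platform annotation, with symbols updated through RefSeq (GRCh38.p14). A single gene was named for 41089 probe sets, several for 1801 and none for 11717, 62 were controls, and 6 with a missing value were left out. Of those with 1 gene, 41035 matched RefSeq. Clade genes came from 29 of the 34 protein-coding SERPIN symbols of RefSeq, and the others are not analysed here. The pseudogenes SERPINA2 and SERPINB9P1 were left out, and 9 members had several probe sets.

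Changes were fitted with limma 3.58.1 in R 4.3.3 (lmFit, eBayes) in 1 fit with a mean for each of the 3 groups, after a check on simulated data. Tests were two-sided and adjusted with Benjamini-Hochberg over the 11756 tested genes. An "at least" fold raises values of a group that lies wholly below the floor to the array medians. Members and gene lists were chosen with earlier results of these data known. Values per array are given for called serpin genes and for others with an adjusted p of at most 0.05. They are also given for SERPINB5, SERPINB8, SERPINF2 and SERPINH1, which had none. Up to 4 called genes with the smallest p are named per list and comparison, with PLAU, PLAT and PLAUR. Alternatives changed the filter, the probe set of a gene, the fit, the test, the scaling and the arrays, and used the actin signal as a covariate. Promoter sequences are those of RefSeq, and the plots used Python 3.11.15 with matplotlib 3.10.9.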

Additional observations from a re-analysis of the deposited data

How the results depend on the processing

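Of 606 values of 27 changes of 9 serpin genes under 23 alternatives, 558 kept their direction and their side of the threshold, 31 lost a call, 8 gained one and 9 changed sign. Most of the 27 changes were not called in the fit as reported, so they had no call to lose. A gene that was no longer tested gave no value, so calls lost in that way are not among the 31. This held for SERPINB3 with the 60th percentile floor, with its probe sets averaged and without the _x_at and _s_at kinds. It also held for SERPINB7 without those kinds and for SERPINF1 with the 60th percentile floor. At 5 µM against 0 µM, where 4 serpin genes were higher and 0 lower, a floor at the 60th percentile, which tests fewer genes, left 2 higher, the actin covariate gave 1 higher and 1 lower (SERPINA5), and equal array medians gave 1 lower. At 10 µM against 5 µM, where 2 were lower, the number was 1 with no filter, with all probe sets of a gene averaged or with _x_at and _s_at probe sets left out, 0 by the methods' t-test and with the actin covariate, and 4 with array weights. Leaving out 1 array at a time gave 1 to 3, the 3 without 0 µM replicate 2, where SERPINF1 was added. At 10 µM against 0 µM, where 4 were higher and 0 lower, 2 were higher with the 60th percentile, without the _x_at and _s_at kinds, by the methods' t-test and with low signals raised to the floor, 0 were higher with the actin covariate, and 1 was lower with array weights. Leaving out 1 array at a time gave 0 to 1 lower. With both 10 µM replicates 2 and 3 left out, chosen after seeing the data, 0 were lower against 5 µM and 2 higher against 0 µM, with a lone 10 µM array assumed to vary like the other groups.

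Signs changed for SERPINA1 at 10 µM against 0 µM (0.41 with its probe sets averaged, 0.77 without the _x_at and _s_at kinds, 0.69 with the actin covariate, 0.32 without 10 µM replicates 2 and 3), for SERPINB9 in the same comparison (-0.063 with equal array medians, -0.025 without those replicates), and at 10 µM against 5 µM for SERPINA5 (-0.18) and SERPINB3 (-0.037) with the actin covariate and for SERPINB7 when 1 array was left out (-0.32 to 0.052, positive without 5 µM replicate 3). The cause was not tested. None of these was called in the fit as reported. The actin signal and the dose move together, and over all genes that covariate left 0 higher and 0 lower at 10 µM against 0 µM, so in that fit the dose has little of its own to be measured by. Same-numbered replicates did not deviate together (correlations of -0.09 to 0.18), and with the replicate number as a block the serpin counts were 4 higher and 0 lower, 0 higher and 2 lower, and 4 higher and 0 lower, as without it. Over all genes the block gave 1015 higher and 152 lower at 5 µM against 0 µM. Signal over background limits the 13 untested genes and SERPINF1 and SERPINB3 in the vehicle.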

Other observations

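PDCD10, a gene whose product acts in vessel wall junctions, lies 828 bases from SERPINI1 on chromosome 3 and was looked at after the values of SERPINI1 were seen. Its log2 signals were 12.45 ± 0.23, 12.34 ± 0.23 and 11.98 ± 0.40 (SD, n = 3) with increasing dose, and its change at 5 µM against 0 µM was -0.11 ± 0.22 (SE, limma adjusted p = 0.720). DNMT1, the maintenance methyltransferase that 5-Aza traps, had log2 signals of 8.61 ± 0.10, 8.88 ± 0.09 and 9.27 ± 0.09.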
